A study of Mus musculus with 6 samples.

Results

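The 38 genes described here are genes of the amino acid response: the transcription factor Atf4, its partners and regulators, stress effectors under it, enzymes of serine, one-carbon and other amino acid metabolism, and amino acid transporters. They were taken by name from a list of that pathway, chosen with earlier results of these data known. All 38 were found among the 46517 genes of the count tables. Poly(A) RNA was sequenced from mouse CD8 T cells in 6 libraries, 3 from cells given supernatant of IL-3-treated basophils (IL-3 supernatant) and 3 from cells given supernatant of basophils kept with PBS (PBS supernatant). In both groups naive T cells from spleen and lymph nodes of C57BL/6J mice were activated over 3 days on plate-bound anti-CD3 at 5 µg/mL, anti-CD28 at 0.5 µg/mL and IL-2 at 100 units/mL. The supernatant was present between day 1 and day 2. It came from sorted basophils held for 2 days in IL-2 (100 units/mL) plus IL-3 (3 ng/mL), or PBS in its place. The medium of both groups was RPMI-1640 with 10% serum, 1% L-glutamine, 1 mM pyruvate and 55 µM mercaptoethanol. None of the 6 libraries came from cells given IL-3 without basophils, so IL-3 carried over in the supernatant and products of the basophils cannot be told apart.

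ATF4 is a basic leucine zipper (bZIP) transcription factor that is translated more when the initiation factor eIF2 is phosphorylated. The kinase GCN2 does this when amino acids run short, PERK under stress of the endoplasmic reticulum, and the mTORC1 kinase also raises ATF4 translation in growing cells. ATF4 pairs with C/EBP proteins on DNA and switches on genes that make, import and load amino acids onto tRNA, together with feedback genes such as Ddit3 and Trib3. Activated T cells depend on serine, one-carbon units and imported amino acids for growth.

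The totals of expected counts lay between 17377052 and 22174902 per library, and 12407 genes had enough counts to be tested. Of these, 1834 (14.8%) were called higher and 2001 (16.1%) lower with IL-3 supernatant, so a called gene was common in this comparison. The median log2 fold change of all genes tested was -0.0047. Markers of CD8 T cells were detected in every library, and 7 of the 8 were called lower with IL-3 supernatant. Their summed level was 1785 to 1951 CPM (counts scaled to library size) with IL-3 supernatant and 2634 to 2798 CPM with PBS supernatant. The markers fell unequally. Cd8a fell most, with means of 377 CPM with IL-3 supernatant and 849.5 CPM with PBS supernatant. Lck was the marker not called, with means of 472 CPM with IL-3 supernatant and 485 CPM with PBS supernatant. Of 8 basophil markers, 4 (Mcpt8, Prss34, Fcer1a and Ms4a2) had no count in any library, and the sum of 4.19 to 5.92 CPM with IL-3 supernatant and 3.59 to 4.67 CPM with PBS supernatant came almost wholly from Il3ra. Dendritic cell markers summed to 5.82 to 8.12 CPM with IL-3 supernatant and 3.08 to 5.12 CPM with PBS supernatant, nearly all of it Zbtb46 (5.36 to 7.71 CPM with IL-3 supernatant and 2.68 to 4.45 CPM with PBS supernatant), while Siglech had no count and Flt3, Xcr1 and Clec9a were each below 1 CPM in every library. CD4 T cell markers summed to 0.360 to 1.04 CPM with IL-3 supernatant and 1.06 to 2.16 CPM with PBS supernatant. B cell markers reached 3.22 CPM with IL-3 supernatant and 3.77 CPM with PBS supernatant, and those of gamma-delta T cells 1.24 CPM with IL-3 supernatant and 1.82 CPM with PBS supernatant. Markers of myeloid, NK, neutrophil and erythroid cells stayed at or below 0.180 CPM with IL-3 supernatant and 0.610 CPM with PBS supernatant. The part of the CD8 marker shift in the results below was not tested, and in bulk libraries fewer cells of a type and less RNA per cell cannot be told apart.

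ATF4 with a C/EBP partner binds a composite element, the amino acid response element, and the promoters of the 38 genes were read for its core letters TGATGNAA on both strands. The windows were RefSeq promoters of GRCm38.p6, from 250 bases before to 50 bases after each start. Promoters were matched for 31 of the 38 genes, and a gene was counted if any of its promoters held the letters. This was so for 8 of the 31 genes (25.8%), against 1219 of all 27025 genes with a promoter (4.51%) and 251 of the 9155 tested genes with a promoter (2.74%). All 8 were among the genes called higher with IL-3 supernatant, which numbered 24 with a promoter, while of all tested genes called higher 70 of 1421 (4.93%) held the letters. The 38 genes were listed as ATF4 pathway genes, so the share describes the list and is no test of binding. These stretches of 30 bases, with the match in capitals and each read on the strand where it runs TGATGNAA, are shown because they put the letters beside the genes whose values follow.
Asns: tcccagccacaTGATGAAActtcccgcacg
Chac1: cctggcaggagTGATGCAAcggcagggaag
Trib3: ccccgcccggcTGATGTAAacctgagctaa
Nupr1: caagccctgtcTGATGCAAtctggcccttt
Vldlr: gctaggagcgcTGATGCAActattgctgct
Pycr1: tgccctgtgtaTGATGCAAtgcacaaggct
Slc1a4: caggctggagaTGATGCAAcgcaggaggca
The Asns match lay 23 to 16 bases before the RefSeq start and on the gene's own strand, in chr6:7693214-7693243 (minus strand). In Pycr1, also on the gene's strand, it lay 103 to 96 bases before the start, in chr11:120643833-120643862 (minus strand). The others were on the strand opposite to the gene. Chac1 had it 193 to 186 bases before the start in chr2:119351038-119351067 (minus strand), Nupr1 110 to 103 bases before the start in chr7:126625562-126625591 (plus strand), and Vldlr 200 to 193 bases before the start in chr19:27216809-27216838 (minus strand). The match of Trib3 began 15 bases after the start, in chr2:152344028-152344057 (plus strand), and that of Slc1a4 crossed the start, in chr11:20332699-20332728 (plus strand). All these positions count from RefSeq starts, which differ from the GENCODE starts of some genes. The matches of Asns, Nupr1 and Vldlr lie inside their GENCODE genes (chr6:7675169-7693254, chr7:126623249-126630861 and chr19:27216484-27254231). That of Trib3 lies upstream of its GENCODE gene (chr2:152337422-152344032). Without the 50 bases after the start, 6 of the 31 genes (19.4%) held the letters, against 3.91% of all genes with a promoter.

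Slc7a11, which encodes the cystine importer xCT, was the gene of the list with 2 matches, facing each other 66 to 59 and 47 to 40 bases before the RefSeq start. The 149 bases printed for it, with both matches in capitals, are chr3:50443615-50443763 on the minus strand and stop at its GENCODE start, which lies 1 base upstream of the RefSeq start. The 237 bases printed for Chac1 are chr2:119350992-119351228 on the plus strand, the gene's own, where its match reads in reverse. They stop at the GENCODE start of Chac1, 13 bases upstream of the RefSeq start from which its match was counted above.
Slc7a11: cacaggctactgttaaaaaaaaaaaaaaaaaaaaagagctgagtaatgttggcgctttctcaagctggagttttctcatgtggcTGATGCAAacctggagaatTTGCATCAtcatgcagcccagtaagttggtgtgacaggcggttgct
Chac1: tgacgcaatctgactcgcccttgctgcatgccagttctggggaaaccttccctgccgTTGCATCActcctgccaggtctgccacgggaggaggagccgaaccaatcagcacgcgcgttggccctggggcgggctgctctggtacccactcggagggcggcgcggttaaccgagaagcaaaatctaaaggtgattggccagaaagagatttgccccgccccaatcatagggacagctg

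Of the 38 genes, 29 were called higher with IL-3 supernatant (76.3%, where the share among all genes tested was 14.8%), none was called lower, and 9 did not pass. Because the list was chosen with earlier results of these data known, the shares in this paragraph describe the list and are no test of it. A gene was called where the quasi-likelihood test of edgeR, adjusted over all 12407 genes, gave p below 0.05. The lowest library with IL-3 supernatant stood above the highest with PBS supernatant for 31 of the 38 genes, where 21.0% of all genes tested did so. For 2 genes every library with IL-3 supernatant stood below every library with PBS supernatant, where 22.6% of all genes did so. Both directions together made 33 genes without overlap, where 43.6% of all genes tested had none. In 13 of the 29 the call came with a fold change of at least 2, where 4.34% of all genes had both. The median log2 fold change of the 38 was 0.51. All 6 stress effectors and all 7 genes of other enzymes and tRNA export were called higher, as were 6 of 7 bZIP factors and regulators, 5 of 8 serine and one-carbon enzymes and 5 of 10 transporters. The CPM values below are scaled to the library and not to gene length. Where a sentence gives ± it is the SD over 3 libraries unless SE is named.

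**Figure D1:**
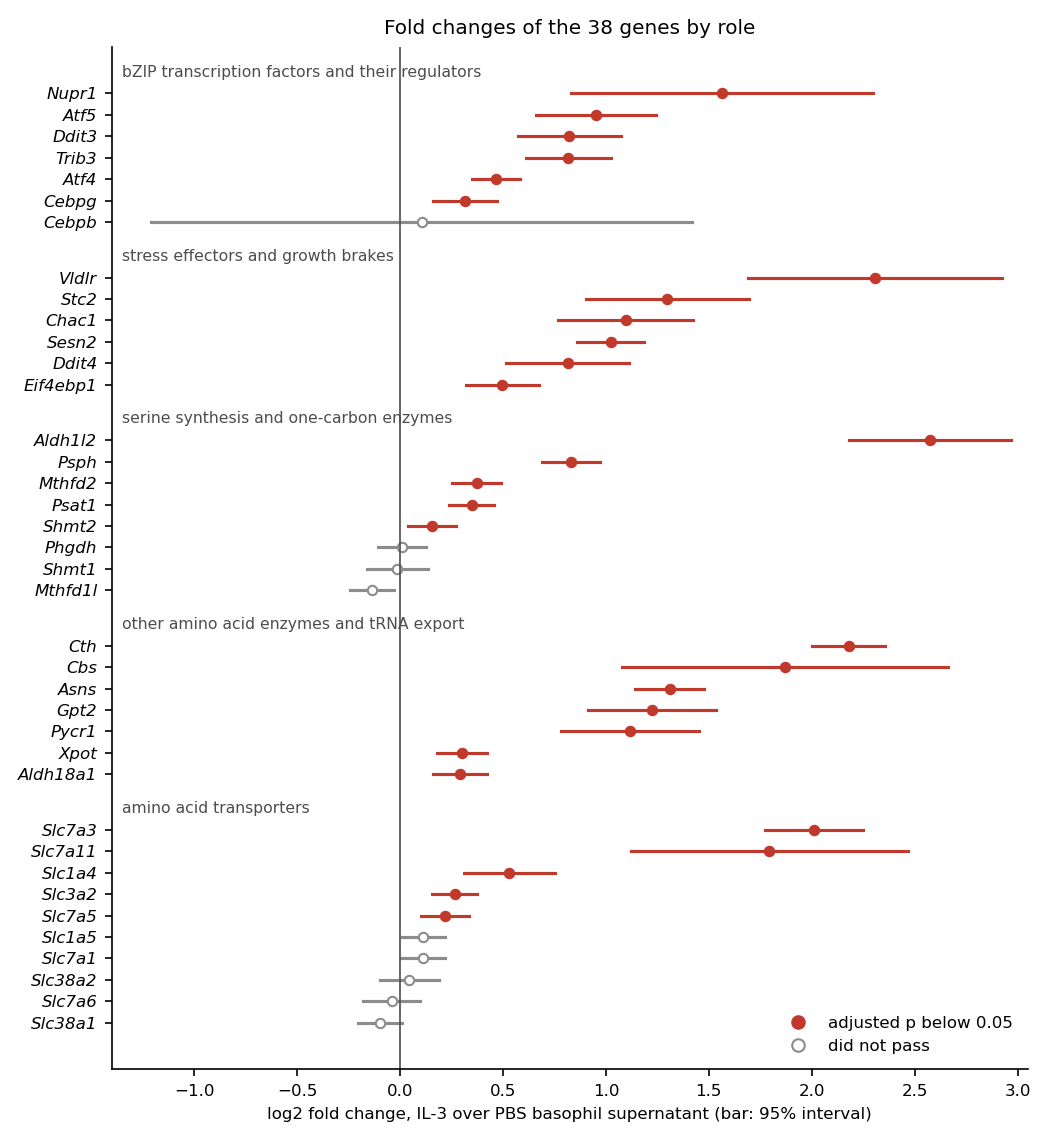
Log2 fold change of each of the 38 genes (IL-3 over PBS supernatant, horizontal axis) by role, with bars for the 95% interval; filled points had an adjusted p below 0.05 and open points did not. The 29 filled points all lie above 0, from Shmt2 at 0.15 to Aldh1l2 at 2.58.

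Among the transcription factors, Atf4 itself (ENSMUSG00000042406, chr15:80255184-80257541, GRCm38) had 597, 549.9 and 583 CPM with IL-3 supernatant and 428, 431 and 393 CPM with PBS supernatant. Every library with IL-3 supernatant stood above every library with PBS supernatant, and the difference was 1.38-fold (log2 fold change 0.47, SE 0.05, adjusted p = 4.8e-06). This is the level of Atf4 mRNA, while the factor is known to be set mainly by translation, which these libraries did not measure. Atf5, a related bZIP factor that is also translated under stress, had 21.5, 20.5 and 17.6 CPM with IL-3 supernatant and 12.5, 9.70 and 8.61 CPM with PBS supernatant. The groups did not overlap and the difference was 1.93-fold (log2 fold change 0.95, SE 0.14, adjusted p = 4.7e-05). Ddit3, which encodes the stress factor CHOP, a partner and target of ATF4, had 18.3, 16.9 and 17.8 CPM with IL-3 supernatant and 10.9, 8.92 and 10.2 CPM with PBS supernatant. Its 3 libraries with IL-3 supernatant lay close together and apart from the others, at 1.77-fold the PBS level (log2 fold change 0.82, SE 0.12, adjusted p = 3.9e-05). Trib3, a pseudokinase that is induced by ATF4 and restrains it, had 59.6, 49.0 and 48.5 CPM with IL-3 supernatant and 32.3, 29.8 and 27.0 CPM with PBS supernatant. Replicate 1 was the highest of the IL-3 group, and the lowest of that group was still well above the PBS libraries (1.76-fold, log2 fold change 0.82, SE 0.10, adjusted p = 5.3e-06).

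The rest of this role gave unequal values. Nupr1, a small stress-induced chromatin protein, was 2.96-fold higher with IL-3 supernatant (log2 fold change 1.56, SE 0.33, adjusted p = 0.0044) at a low level of 7.49 ± 1.21 CPM with IL-3 supernatant and 2.53 ± 1.27 CPM with PBS supernatant. Cebpg, a C/EBP protein that pairs with ATF4, was 1.24-fold higher (log2 fold change 0.31, SE 0.07, adjusted p = 0.0034). Cebpb, another C/EBP partner, did not pass (log2 fold change 0.11, SE 0.52, adjusted p = 0.91): its libraries ranged from 3.98 to 6.93 CPM with IL-3 supernatant and from 2.94 to 9.29 CPM with PBS supernatant. The highest of its 6 libraries was replicate 1 of PBS supernatant, and without that library its log2 fold change was 0.83 with an adjusted p of 0.018. Atf5 shares 82 exon bases with Il4i1 on the opposite strand, which was called higher too (3.25 CPM with IL-3 supernatant and 0.748 CPM with PBS supernatant). Cebpb shares 312 bases with Tmem189, which had 88.6 CPM with IL-3 supernatant and 79.3 CPM with PBS supernatant. The strand setting of the counting is not given in the sources used here, so reads of such overlaps cannot be told apart by strand. Ddit3 shares 68 bases with the methionyl-tRNA synthetase gene Mars1, at 261 CPM with IL-3 supernatant and 243 CPM with PBS supernatant, which did not pass. The expected counts of Atf5 and Ddit3 had no fractional part in any library, while those of Cebpb had one in all 6. What this says of the reads in the overlaps was not tested.

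The 6 stress effectors and growth brakes were all called higher with IL-3 supernatant, with a median log2 fold change of 1.06. Sesn2 (ENSMUSG00000028893, chr4:132492032-132510501), a leucine sensor that holds mTORC1 back, had 79.9, 73.0 and 83.2 CPM with IL-3 supernatant and 41.6, 37.9 and 36.7 CPM with PBS supernatant. The lowest IL-3 library was far above the highest PBS library (2.03-fold, log2 fold change 1.02, SE 0.08, adjusted p = 1.8e-08). Chac1 (ENSMUSG00000027313, chr2:119351229-119354381), an enzyme that breaks down glutathione and is a classical ATF4 target, had 18.2, 14.5 and 14.2 CPM with IL-3 supernatant and 6.79, 8.98 and 6.16 CPM with PBS supernatant. The groups did not overlap, replicate 1 being highest with IL-3 supernatant and replicate 2 with PBS supernatant (2.14-fold, log2 fold change 1.10, SE 0.16, adjusted p = 3.5e-05). Stc2, a secreted glycoprotein, had 11.8, 9.86 and 8.78 CPM with IL-3 supernatant and 4.62, 4.65 and 3.08 CPM with PBS supernatant. It stood 2.46-fold higher with no overlap (log2 fold change 1.30, SE 0.19, adjusted p = 4.2e-05). Eif4ebp1, which encodes the translation brake 4E-BP1, had 80.6, 77.5 and 72.1 CPM with IL-3 supernatant and 57.5, 58.8 and 46.9 CPM with PBS supernatant, again without overlap and by a smaller 1.41-fold (log2 fold change 0.50, SE 0.08, adjusted p = 0.00025). Ddit4, the mTORC1 inhibitor REDD1, was 1.76-fold higher (log2 fold change 0.81, SE 0.13, adjusted p = 0.0015) and had the widest spread of the 6 in CPM with IL-3 supernatant, 70.0 to 101 CPM. Vldlr, a lipoprotein receptor, was scarce in both groups at 4.46 ± 0.611 CPM with IL-3 supernatant and 0.896 ± 0.0461 CPM with PBS supernatant, and 4.95-fold higher (log2 fold change 2.31, SE 0.29, adjusted p = 1.04e-05).

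In serine synthesis the 3 successive enzymes did not move together. Phgdh, the entry enzyme, did not pass: its 6 libraries lay between 469 and 526 CPM, the groups overlapped, and the 95% interval of its log2 fold change ran from -0.11 to 0.13. Psat1, the aminotransferase of the next step, had 518, 490.1 and 481 CPM with IL-3 supernatant and 396, 399 and 375 CPM with PBS supernatant. It was higher in every library with IL-3 supernatant, 1.27-fold (log2 fold change 0.35, SE 0.05, adjusted p = 6.1e-05). Psph (ENSMUSG00000029446, chr5:129765558-129787449), the phosphatase that releases serine, had 98.5, 92.6 and 91.4 CPM with IL-3 supernatant and 52.0, 56.8 and 50.2 CPM with PBS supernatant. This was the largest rise of the 3 enzymes, 1.78-fold (log2 fold change 0.83, SE 0.07, adjusted p = 4.6e-08). On the length-scaled TPM, the ratio of Psph to Phgdh was 0.206 ± 0.00723 with IL-3 supernatant and 0.116 ± 0.00504 with PBS supernatant. Psph shares 452 exon bases with Cct6a on the opposite strand, which had 717 CPM with IL-3 supernatant and 637 CPM with PBS supernatant and a log2 fold change of 0.17. The expected counts of Psph had a fractional part in all 6 libraries, and the part of the overlap in this was not tested.

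The one-carbon enzymes did not move together either. Aldh1l2 (ENSMUSG00000020256, chr10:83487450-83534140), the mitochondrial enzyme that oxidises 10-formyl-tetrahydrofolate, had 19.8, 17.5 and 14.2 CPM with IL-3 supernatant and 3.28, 3.27 and 2.05 CPM with PBS supernatant. All 3 libraries with IL-3 supernatant stood far above the others, and its 5.96-fold difference (log2 fold change 2.58, SE 0.19, adjusted p = 1.6e-08) was the largest of the 38 genes. Across the alternative analyses its log2 fold change ran from 1.69 to 2.69, and that of Cth from 2.06 to 2.25, so it was not the largest in all of them. Aldh1l2 shares 1056 exon bases with D10Wsu102e on the opposite strand, which moved the other way, with 83.5 CPM with IL-3 supernatant and 94.3 CPM with PBS supernatant. The expected counts of Aldh1l2 had no fractional part in any library. Mthfd2, a mitochondrial folate dehydrogenase induced on T cell activation, had 311, 303 and 307 CPM with IL-3 supernatant and 253, 239 and 221 CPM with PBS supernatant. The groups did not overlap at 1.29-fold (log2 fold change 0.37, SE 0.06, adjusted p = 6.6e-05). Shmt2, which takes a carbon from serine in mitochondria, was 1.11-fold higher (log2 fold change 0.15, SE 0.06, adjusted p = 0.044). That call was the weakest of the 29, and it was lost when any of 4 libraries was left out (IL-3 replicate 1, IL-3 replicate 3, PBS replicate 2 or PBS replicate 3), where the adjusted p reached 0.211. Mthfd1l, the mitochondrial synthetase that releases formate, had 186 to 192 CPM with IL-3 supernatant and 204 to 209.96 CPM with PBS supernatant. Every library with IL-3 supernatant was below every library with PBS supernatant, but the difference did not pass (log2 fold change -0.14, SE 0.05, adjusted p = 0.0501). Without replicate 1 of PBS supernatant it passed as lower, with an adjusted p of 0.0397. Shmt1, the cytosolic form of Shmt2, overlapped between the groups (log2 interval -0.16 to 0.14). It shares 184 exon bases with Smcr8 on the opposite strand, which had 93.8 CPM with IL-3 supernatant and 80.2 CPM with PBS supernatant.

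All 7 genes of other amino acid enzymes and tRNA export were called higher with IL-3 supernatant, with a median log2 fold change of 1.23, the highest of the 5 roles. Asns (ENSMUSG00000029752, chr6:7675169-7693254), asparagine synthetase and a standard marker of the amino acid response, had 250.4, 226 and 226 CPM with IL-3 supernatant and 103, 98.3 and 82.2 CPM with PBS supernatant. The 2 groups were far apart, at 2.48-fold (log2 fold change 1.31, SE 0.08, adjusted p = 1.4e-08). Cth (ENSMUSG00000028179, chr3:157894248-157925077), the enzyme that makes cysteine from cystathionine, had 112, 99.9 and 97.6 CPM with IL-3 supernatant and 24.9, 20.3 and 23.1 CPM with PBS supernatant. No library of either group came near the other group, and the 4.53-fold rise had the smallest p of the 38 genes (log2 fold change 2.18, SE 0.08, adjusted p = 5.8e-12). Gpt2, a mitochondrial alanine aminotransferase, had 61.3, 52.7 and 47.0 CPM with IL-3 supernatant and 26.0, 24.6 and 18.2 CPM with PBS supernatant. Replicate 3 was lowest in both groups and the groups did not overlap (2.34-fold, log2 fold change 1.23, SE 0.14, adjusted p = 6.6e-05). Pycr1, the mitochondrial enzyme of the last step of proline synthesis, had 10.6, 9.86 and 9.55 CPM with IL-3 supernatant and 4.73, 5.10 and 3.99 CPM with PBS supernatant. It was 2.17-fold higher without overlap (log2 fold change 1.12, SE 0.16, adjusted p = 3.4e-05).

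The other genes of this role had smaller or less precise changes. Aldh18a1, which starts proline synthesis from glutamate, was 1.22-fold higher (log2 fold change 0.29, SE 0.06, adjusted p = 0.0016), less than Pycr1 further down the same path. Cbs, which makes the cystathionine that Cth splits, was 3.66-fold higher (log2 fold change 1.87, SE 0.37, adjusted p = 0.00098) at only 3.29 ± 0.147 CPM with IL-3 supernatant and 0.892 ± 0.428 CPM with PBS supernatant. Xpot, the exportin that carries tRNA out of the nucleus, was 1.23-fold higher (log2 fold change 0.30, SE 0.06, adjusted p = 0.00066).

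The transporters divided evenly, with 5 of 10 called higher and 5 that did not pass. Slc7a3 (ENSMUSG00000031297, chrX:101079210-101086020), a cationic amino acid transporter (CAT-3) for arginine and lysine, had 51.8, 41.7 and 41.7 CPM with IL-3 supernatant and 12.5, 10.7 and 10.4 CPM with PBS supernatant. It was the transporter with the largest change, 4.03-fold (log2 fold change 2.01, SE 0.11, adjusted p = 5.6e-10), with the groups far apart. Slc7a11 (ENSMUSG00000027737, chr3:49892526-50443614), whose upstream sequence is printed above, had 9.68, 10.4 and 5.77 CPM with IL-3 supernatant and 3.56, 2.33 and 1.54 CPM with PBS supernatant. Replicate 3 was low in both groups, but the groups did not overlap (3.47-fold, log2 fold change 1.79, SE 0.30, adjusted p = 0.00096), and the 95% interval of the log2 fold change was wide, 1.12 to 2.47. Slc1a4, a carrier of serine and alanine, had 38.9, 33.8 and 37.5 CPM with IL-3 supernatant and 29.0, 25.4 and 21.8 CPM with PBS supernatant. It was 1.45-fold higher in non-overlapping groups (log2 fold change 0.53, SE 0.10, adjusted p = 0.00079).

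Slc7a5 and Slc3a2 encode the light and heavy chains of LAT1, the importer of leucine and other large neutral amino acids, and were among the most abundant genes of the list. Slc7a5 had 714, 676 and 637 CPM with IL-3 supernatant and 597, 588 and 557 CPM with PBS supernatant. Slc3a2 had 321, 299 and 318 CPM with IL-3 supernatant and 257, 268 and 256 CPM with PBS supernatant. Neither overlapped between the groups, and both changes were small, 1.16-fold for Slc7a5 (log2 fold change 0.22, SE 0.05, adjusted p = 0.0056) and 1.2-fold for Slc3a2 (log2 fold change 0.26, SE 0.05, adjusted p = 0.000796). The TPM ratio of light to heavy chain was 1.60 ± 0.108 with IL-3 supernatant and 1.65 ± 0.0587 with PBS supernatant, so its values overlapped. The 5 transporters that did not pass were Slc7a1 (CAT-1, the main arginine importer of many cells), Slc7a6, the glutamine importer Slc1a5, and the glutamine and alanine carriers Slc38a1 and Slc38a2. Their log2 fold changes lay between -0.10 for Slc38a1 and 0.11 for Slc1a5. Slc7a1 and Slc1a5 still had every library with IL-3 supernatant above every library with PBS supernatant, with 95% intervals of the log2 fold change of 0.00 to 0.22 and 0.01 to 0.22. Slc38a1 was below in every library (interval -0.20 to 0.01), while Slc7a6 (-0.18 to 0.10) and Slc38a2 (-0.10 to 0.19) overlapped. The ratio of Slc7a3 to Slc7a1 in TPM was 0.248 ± 0.0306 with IL-3 supernatant and 0.0703 ± 0.00315 with PBS supernatant.

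**Figure D2:**
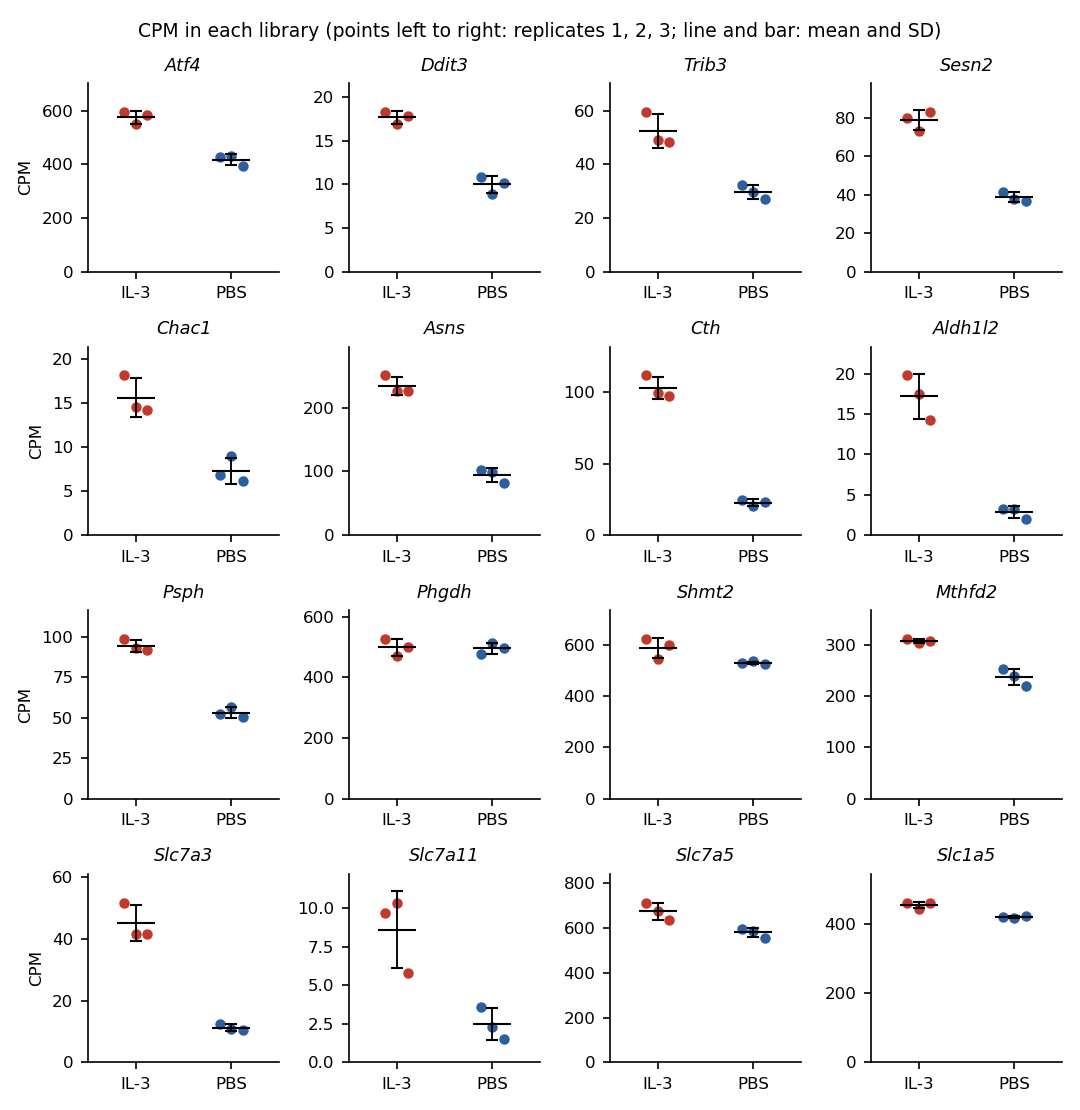
CPM in every library (vertical axes from 0) for 16 of the genes, with IL-3 supernatant left and PBS supernatant right; points are replicates 1, 2 and 3 and lines with bars are mean and SD. Cth, Aldh1l2 and Slc7a3 are far apart between the groups, Phgdh overlaps, and Slc7a5 and Shmt2 differ by little.

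The larger changes were found among the less abundant transcripts. On TPM, which scales for length and so permits comparison between genes, the list was led by Atf4 (655 ± 29.0 TPM with IL-3 supernatant and 466 ± 23.2 TPM with PBS supernatant), Phgdh (517 ± 29.8 TPM with IL-3 supernatant and 504 ± 5.20 TPM with PBS supernatant) and Shmt2 (499.5 ± 34.5 TPM with IL-3 supernatant and 441 ± 12.1 TPM with PBS supernatant). Next came Slc7a5, Psat1 and Slc1a5. The scarcest were Vldlr (2.34 ± 0.480 TPM with IL-3 supernatant and 0.413 ± 0.0280 TPM with PBS supernatant), Slc7a11 (2.57 ± 0.518 TPM with IL-3 supernatant and 0.776 ± 0.359 TPM with PBS supernatant) and Cbs (2.67 ± 0.103 TPM with IL-3 supernatant and 0.792 ± 0.421 TPM with PBS supernatant). Asns had 231 ± 12.8 TPM with IL-3 supernatant and 91.5 ± 11.0 TPM with PBS supernatant, while Slc7a1 had 152 ± 6.00 TPM with IL-3 supernatant and 138 ± 7.002 TPM with PBS supernatant, so their order differed between the groups. The ratio of Asns to Atf4 in TPM was 0.352 ± 0.0139 with IL-3 supernatant and 0.196 ± 0.0141 with PBS supernatant. Spearman's rho between mean TPM over all libraries and log2 fold change was -0.63 across the 38 genes and -0.07 across all 12407. For the size of the change regardless of its sign it was -0.64 across the 38 genes and -0.41 across all 12407, so scarcer genes had larger fitted changes in general. The points share the same 6 libraries and their counting depth, and the coefficients are a description only. With a mean below 10 TPM, 6 of 7 genes were called higher, with a median log2 fold change of 1.79. From 10 to 100 TPM it was 14 of 15 with a median of 0.83, and at 100 TPM or more 9 of 16 with a median of 0.19. Among all genes tested the share called higher was 14.8%, 14.6% and 15.1% in the same 3 ranges.

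**Figure D3:**
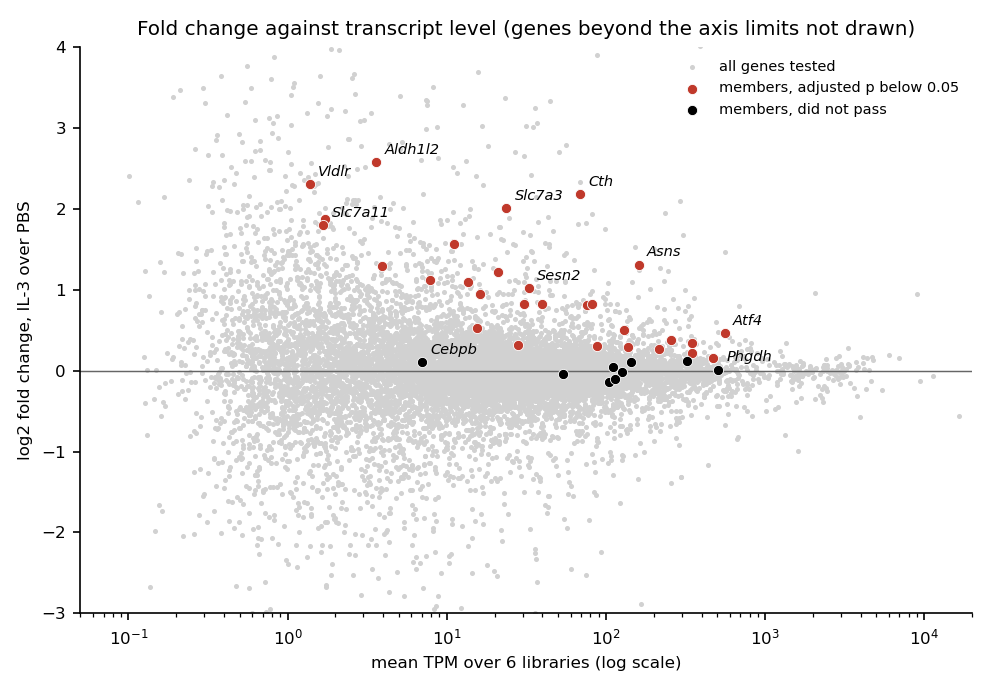
Log2 fold change (IL-3 over PBS supernatant) against mean TPM over the 6 libraries on a log scale, for all genes tested (grey) and for the 38 genes by call. The members with the largest changes lie mostly below 100 TPM, and those at 100 TPM or more have a median log2 fold change of 0.19.

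Summed over the 38 genes, TPM was 5266 ± 182 with IL-3 supernatant and 4124 ± 177 with PBS supernatant, a ratio of 1.28. The other enzymes and tRNA export had the highest ratio, 1.90, with 637 ± 35.4 TPM with IL-3 supernatant and 336 ± 30.5 TPM with PBS supernatant. Stress effectors followed at 1.66, with 322 ± 20.6 TPM with IL-3 supernatant and 194 ± 18.8 TPM with PBS supernatant. The bZIP factors had a ratio of 1.46, most of it Atf4 itself. The roles with the most mRNA had the lowest ratios: 1.16 for the serine and one-carbon enzymes (2040 ± 89.6 TPM with IL-3 supernatant and 1766 ± 35.2 TPM with PBS supernatant) and 1.14 for the transporters (1446 ± 33.2 TPM with IL-3 supernatant and 1264 ± 64.5 TPM with PBS supernatant).

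**Figure D4:**
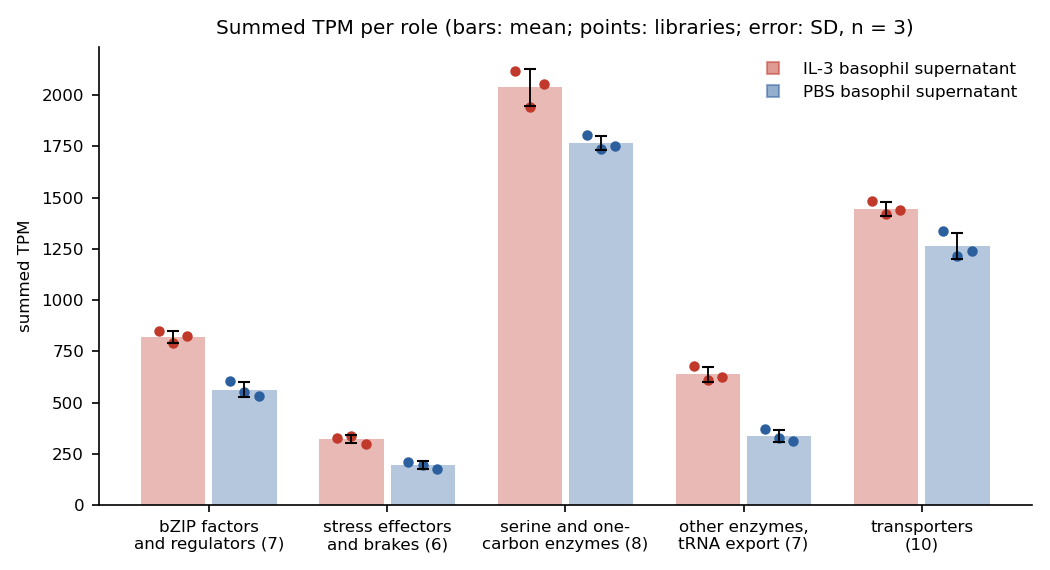
Summed TPM of the genes of each role, with IL-3 supernatant left of PBS supernatant; bars are means, points are libraries and error bars are SD over 3 libraries. The gap is small relative to the level for transporters and serine and one-carbon enzymes, and large for the other enzymes, at a ratio of 1.90.

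The libraries of a group kept a common order over these genes. IL-3 replicate 1 had the highest value of its group for 27 of the 38 genes and IL-3 replicate 3 the lowest for 23, where each was highest or lowest for 31.8% and 31.6% of all genes tested. PBS replicate 3 was the lowest of its group for 31 of the 38, where it was lowest for 29.0% of all genes, and PBS replicate 1 was the highest for 23, where it was highest for 37.4% of all genes. Within each group, then, replicate 1 was most often the highest and replicate 3 most often the lowest. Among the 29 genes called higher, IL-3 replicate 1 was highest for 24 and PBS replicate 3 lowest for 26. The genes of the list therefore share part of their spread between libraries and are not independent of one another. Leaving out any 1 library gave 28 to 31 genes called higher.

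Other genes of the same pathways were read from 10 lists of 168 names, 167 of them matched and 153 tested. Of the 153, 51 were called higher and 24 lower (49.0% called, where 30.9% of all genes tested were), with a median log2 fold change of 0.09.

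Upstream of ATF4, the genes of eIF2, its kinases, phosphatase subunits and exchange factor had 6 of 16 called higher and 2 lower. The share called was 50%, where it was 30.9% of all genes tested. Eif2s2, the beta subunit of eIF2, had a log2 fold change of 0.33 ± 0.05 (SE, adjusted p = 0.00018), Ppp1r15a (GADD34), which takes the phosphate off eIF2, had 0.35 ± 0.10 (SE, adjusted p = 0.0098), and Eif2s3x, the gamma subunit, had 0.18 ± 0.05 (SE, adjusted p = 0.013). Of the 4 eIF2 kinases, Eif2ak2 (PKR) was lower at -0.36 ± 0.09 (SE, adjusted p = 0.0074), as was Eif2ak1 (HRI) at -0.20 ± 0.06 (SE, adjusted p = 0.017), the amino acid sensor Eif2ak4 (GCN2) was higher at 0.34 ± 0.11 (SE, adjusted p = 0.042), and Eif2ak3 (PERK) did not pass at 0.16 ± 0.08 (SE, adjusted p = 0.13). These are mRNA levels and do not measure the activity of the kinases. Of 10 further stress-inducible genes 7 were called higher and 0 lower (70% called), with a median of 0.45. Atf3, a bZIP repressor downstream of ATF4, had 136, 128 and 131 CPM with IL-3 supernatant and 37.9, 36.2 and 29.5 CPM with PBS supernatant. Its groups were far apart at 3.81-fold (log2 fold change 1.93, SE 0.08, adjusted p = 4.4e-11). Tnfrsf10b, the TRAIL receptor, had a log2 fold change of 0.75 ± 0.08 (SE, adjusted p = 2.7e-06), and Lonp1, a mitochondrial protease, of 0.53 ± 0.06 (SE, adjusted p = 2.2e-06).

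The cytosolic aminoacyl-tRNA synthetases, which load amino acids onto tRNA, had 11 of 19 called higher and 1 lower, with a median of 0.19. The share called was 63.2%, where it was 30.9% of all genes tested. Lars1 (leucine), Aars1 (alanine) and Sars1 (serine) had the smallest p, with log2 fold changes of 0.61 ± 0.05 (SE, adjusted p = 9.98e-08), 0.44 ± 0.05 (SE, adjusted p = 8.4e-06) and 0.43 ± 0.05 (SE, adjusted p = 1.1e-05). Vars1 (valine) was lower at -0.19 ± 0.05 (SE, adjusted p = 0.012). Of the 17 mitochondrial synthetases 1 was called higher (Aars2, log2 fold change 0.26, SE 0.10, adjusted p = 0.047) and 1 lower (Tars2, log2 fold change -0.29, SE 0.07, adjusted p = 0.0048), with a median of 0.00003. Their share called, 11.8%, was below the 30.9% of all genes tested. The difference between the 2 kinds of synthetase was not tested.

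Among 13 further amino acid transporters 3 were called higher and 2 lower. This was 38.5% called, not far from the 30.9% of all genes tested. The glycine transporter Slc6a9 had a log2 fold change of 0.95 ± 0.13 (SE, adjusted p = 4.97e-05), Slc38a7, a lysosomal glutamine carrier, of 0.54 ± 0.15 (SE, adjusted p = 0.013), and Slc43a1, a carrier of large neutral amino acids, of 0.58 ± 0.20 (SE, adjusted p = 0.0398). Slc43a2, a relative of Slc43a1, was lower at -0.62 ± 0.10 (SE, adjusted p = 8.9e-05), and the lysosomal Slc36a1 at -0.42 ± 0.12 (SE, adjusted p = 0.011). The folate and methionine cycle genes had 5 of 17 higher and 2 lower (41.2% called). Gldc and Dld, both of the glycine cleavage system, were higher at 0.86 ± 0.16 (SE, adjusted p = 0.00045) and 0.33 ± 0.06 (SE, adjusted p = 0.00059), and Gcsh of the same system was lower at -0.24 ± 0.08 (SE, adjusted p = 0.037). Ahcy, which clears S-adenosylhomocysteine, was higher at 0.17 ± 0.05 (SE, adjusted p = 0.014), and the mitochondrial serine carrier Sfxn3 was lower at -0.47 ± 0.14 (SE, adjusted p = 0.019). Of 15 genes of glutamine, proline, aspartate and arginine metabolism 5 were higher and 2 lower (46.7% called). The branched-chain aminotransferase Bcat1 had 0.57 ± 0.05 (SE, adjusted p = 2.7e-07), and the aspartate aminotransferase Got1 had 0.24 ± 0.06 (SE, adjusted p = 0.0036). The successive enzymes that rebuild arginine went opposite ways, with Asl higher at 0.48 ± 0.11 (SE, adjusted p = 0.0029) and Ass1 lower at -0.51 ± 0.06 (SE, adjusted p = 1.2e-05), and the glutamine synthetase Glul was lower at -0.34 ± 0.07 (SE, adjusted p = 0.0013).

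The ATF6 and IRE1-XBP1 arms of the unfolded protein response, which run beside PERK and ATF4, had 7 of 18 genes called higher and 3 lower, with a median log2 fold change of 0.12. The share called was 55.6%, where it was 30.9% of all genes tested. The sensors Atf6 (log2 fold change 0.37, SE 0.07, adjusted p = 0.00068) and Ern1 (IRE1, log2 fold change 0.55, SE 0.12, adjusted p = 0.0022) and the chaperone Hspa5 (BiP, log2 fold change 0.27, SE 0.06, adjusted p = 0.0016) were higher. The transcription factor Xbp1 (log2 fold change -0.34, SE 0.06, adjusted p = 0.00033), Dnajc3, an inhibitor of eIF2 kinases (log2 fold change -0.36, SE 0.06, adjusted p = 0.00012), and the protein disulfide isomerase Pdia4 (log2 fold change -0.20, SE 0.06, adjusted p = 0.022) were lower.

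**Figure D5:**
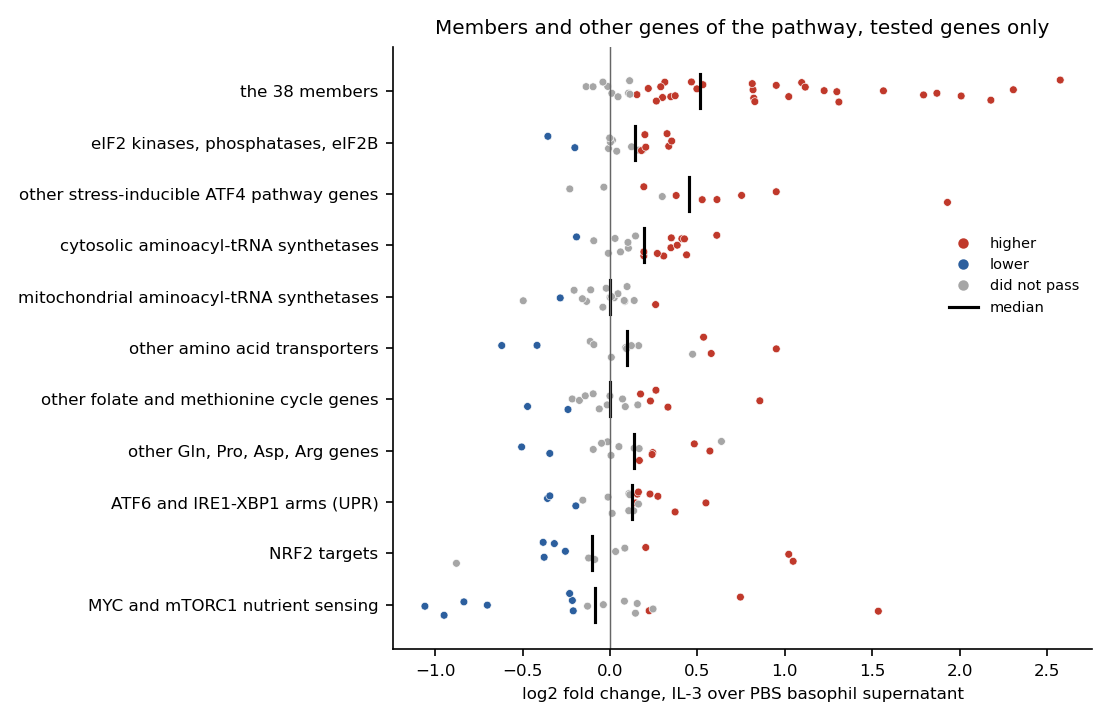
Log2 fold change (IL-3 over PBS supernatant) of each of the 38 genes, drawn together in a single row, and of each tested gene in the 10 other lists. Colour gives the call and the black line the median. The medians of the other lists lie between -0.11 for NRF2 targets and 0.45 for the further stress-inducible genes, and that of the 38 genes together is 0.51.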

How the data were processed

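The 6 libraries fell in 3 per group, with groups and replicate numbers from the sample titles. The labels do not say whether replicates are separate cultures or animals, so the spread behind each p-value may be technical. Libraries were poly(A) TruSeq RNA, per the labels' protocols. The submitters' processing notes name RSEM 1.2.12, Bowtie2 2.2.0, edgeR 3.20.9 and GRCm38. The sources used here give neither the roles of these tools nor the annotation and the strand setting.

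The authors deposited expected counts per gene, which split reads shared by several genes, for 46517 identifiers, 46005 of them matched to symbols. They were rounded to whole numbers. Counts with a fractional part beyond 0.001 occurred in all 6 libraries for Cebpb, Psph, Xpot, Slc7a11 and Slc3a2, whose values are less certain to that extent. The authors also deposited TPM, by gene for 5 libraries. PBS replicate 2 had isoform TPM, which were summed to genes (99.667% of its TPM matched). No pair of libraries agreed within sampling noise. Totals ranged from 17377052 to 22174902, and 3 counts in a library correspond to 0.135 to 0.173 CPM, which covers counting error only.

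Genes were tested with edgeR 4.0.16 under R 4.3.3 (filterByExpr, TMM, robust quasi-likelihood fit on group, Benjamini-Hochberg over 12407 genes, threshold 0.05). SE values come from the F statistic. CPM use TMM-scaled library sizes. The test was tried on simulated data. Alternatives were other scalings, filters, thresholds and pseudocounts, DESeq2 1.42.0, limma 3.58.1 (voom, log2 TPM), a replicate block and each library left out. The fit on TPM of 6 libraries was added after seeing the data. Promoter sequences and positions come from RefSeq (GRCm38.p6), gene coordinates and exon overlaps from GENCODE on GRCm38.

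The 38 genes, the other lists and the rules were chosen with earlier results of these data known. CPM per library are given for called members that average 2 or more in log2 CPM, up to 4 per role with the smallest p, plus Atf4, Atf5, Ddit3, Asns, Chac1, Slc7a11, Slc7a5 and Slc3a2. In each other list up to 3 called genes per direction are named, plus Eif2ak3, Eif2ak4, Myc, Atf3 and Xbp1. Nars1 was not analysed here. Tables were read with Python 3.11.15, pandas 2.3.3 and scipy 1.17.1, and plots drawn with matplotlib 3.10.9.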

Additional observations from a re-analysis of the deposited data

How the results depend on the processing

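Across the alternatives 26 to 31 of the 38 genes were called higher, except 21 in the edgeR test against a fold of 1.2 and 11 with log2(TPM + 1) and no filter. No gene was called lower except Mthfd1l, with limma-voom (1 lower) and without PBS replicate 1 (0 to 1 lower over the 6 fits that leave out a library). With the replicate number as a block, 28 were called higher and 0 lower. Each gene's log CPM was centred on the mean of its group, and the libraries were then correlated over all genes tested. Same-numbered libraries had correlations of -0.15, 0.052 and 0.25 for replicates 1, 2 and 3. The highest correlation of each IL-3 library with a PBS library of another number was 0.26, 0.054 and 0.088. The same number was thus the closer match for replicate 3 alone, and the numbers were not taken to pair the libraries. The replicate order that both groups shared over the 38 genes was not tested for pairing. The genome-wide counts of 1834 higher and 2001 lower were 928 and 937 against a fold of 1.2 and 669 and 820 with TPM unfiltered, and 1217 were higher at an adjusted p below 0.01. Of the other pathway genes, 19 were higher and 6 lower against a fold of 1.2, 33 and 15 with log2(TPM + 1), 32 and 14 with log2(TPM + 0.1), 15 and 7 unfiltered, and 31 were higher at an adjusted p below 0.01. They ranged from 35 to 52 higher and 16 to 24 lower when a library was left out.

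The sign turned for 5 genes, none of which passed in the test reported. Over fits without a library, log2 fold changes ran from -0.17 to 0.83 for Cebpb, -0.10 to 0.046 for Shmt1, -0.029 to 0.065 for Phgdh, -0.11 to 0.0024 for Slc7a6 and -0.0054 to 0.13 for Slc38a2. Shmt1 was 0.0090 with library sizes alone, 0.031 on TPM of 5 libraries with either pseudocount or no filter, and 0.013 on 6. Cebpb was -0.045, -0.033 and -0.045 with pseudocounts of 1, 0.1 and no filter. The cause was not tested. Shmt2 lost its call in 12 of 20 alternatives. Low counts limit Vldlr, Cbs, Slc7a11 and Nupr1, and also Aldh1l2 with PBS supernatant (59, 59 and 36 counts).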

Other observations

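Of 12 tested targets of NRF2, the oxidant-response factor that also drives Slc7a11, 3 were called higher and 4 lower with IL-3 supernatant, where 14.8% and 16.1% of all genes tested were. Srxn1 (log2 fold change 1.05, SE 0.13, adjusted p = 8.4e-06), which repairs oxidised peroxiredoxins, Hmox1 (log2 fold change 1.02, SE 0.14, adjusted p = 2.03e-05), heme oxygenase, and G6pdx (log2 fold change 0.20, SE 0.07, adjusted p = 0.0396), the entry enzyme of the pentose phosphate pathway, were higher. Gsr (log2 fold change -0.38, SE 0.06, adjusted p = 7.6e-05), glutathione reductase, Gclc (log2 fold change -0.38, SE 0.08, adjusted p = 0.0013), the catalytic subunit for glutathione synthesis, and the peroxiredoxin Prdx1 (log2 fold change -0.26, SE 0.06, adjusted p = 0.0019) were lower.

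Of 16 genes of MYC and mTORC1 nutrient sensing 3 were called higher, a share near the 14.8% of all genes tested, and 7 lower, where 16.1% of all genes were. The sestrins differed: Sesn3 was higher (log2 fold change 0.75, SE 0.08, adjusted p = 1.1e-06), as Sesn2 was, and Sesn1 was lower (log2 fold change -0.70, SE 0.10, adjusted p = 3.2e-05). The arginine sensor Castor1 was higher (log2 fold change 1.54, SE 0.18, adjusted p = 6.2e-06), and so was Mtor (log2 fold change 0.22, SE 0.06, adjusted p = 0.012). Max, the partner of MYC (log2 fold change -0.84, SE 0.07, adjusted p = 5.9e-08), and the lysosomal factor Tfeb (log2 fold change -0.95, SE 0.12, adjusted p = 1.6e-05) were lower, and Myc itself was lower by a small amount (log2 fold change -0.22, SE 0.06, adjusted p = 0.0088).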
